A study of Homo sapiens with 12 samples.

Results

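ARMH1, PLIN2, ZNF704 and CFTR are 4 of the 58288 genes in each of the gene tables of the KOPTK1 and HPB-ALL lines. They were chosen by their measured values, namely a rise in both tables by the comparison columns there (not used here) and a level over 10 times higher in KOPTK1 than in HPB-ALL. The study asked how loss of SHQ1, an assembly factor for H/ACA ribonucleoproteins, changes the transcriptome of human T-cell acute lymphoblastic leukemia (T-ALL) cells. The 12 libraries came from 2 established T-ALL lines. Each line carried a pLKO.1 lentivirus with either a short hairpin RNA (shRNA) against GFP, as control (shGFP), or one against SHQ1 (shSHQ1), and there were 3 libraries per shRNA group in a line. All cells, controls included, had 48 h of culture with puromycin at 2 μg/mL, and ribosomal RNA was depleted from total RNA before library preparation. Libraries are named here by the numbers that head them in the tables, 1 to 6 for KOPTK1 and 7 to 12 for HPB-ALL. These headings give neither the shRNA group nor the replicate, so no library was given to shGFP or shSHQ1. Values are described by line and by library, with no knockdown comparison and no test.

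The 4 genes have different known roles. PLIN2 encodes perilipin 2, a protein that coats cytoplasmic lipid droplets and is a known target of the PPAR nuclear receptors. CFTR encodes the cAMP-regulated chloride channel that is mutated in cystic fibrosis, an ABC-family protein best known from epithelia. ZNF704 encodes a zinc finger protein related to ZNF395 and SLC2A4RG, and ARMH1 encodes a protein with an armadillo-like helical domain.

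Library totals were 22.9 to 36.1 M estimated counts in KOPTK1 and 36.8 to 42.8 M in HPB-ALL. Of 17 T-lineage markers, 16 were in the tables and 15 of these reached a median of 1 RPKM (the count per kilobase of exon, scaled to the library total) in either line, and they summed to 1990 to 2456 RPKM in KOPTK1 and 1353 to 1395 RPKM in HPB-ALL. The KOPTK1 over HPB-ALL ratio of medians ran from 0.55 for ZAP70 to 5.70 for CD8A, and CD4 was below 1 RPKM in both lines. Epithelial markers (0 of 8 at 1 RPKM) summed to 0.791 to 2.62 RPKM in KOPTK1 and 1.06 to 1.43 RPKM in HPB-ALL. Adipocyte markers (0 of 5) summed to 0.0839 to 0.624 and 0.178 to 0.278 RPKM, and myeloid markers (0 of 6) to 1.21 to 2.25 and 0.822 to 1.11 RPKM. B-lineage markers summed to 7.42 to 26.0 RPKM in KOPTK1 and 41.5 to 46.6 RPKM in HPB-ALL, mostly through CD79A, and erythroid markers to 3.67 to 7.88 and 9.46 to 12 RPKM. The oncogene TLX3, known from HPB-ALL, had a median of 0 RPKM there and 0.0198 RPKM in KOPTK1. LMO2, known from KOPTK1, had medians of 1.27 RPKM in KOPTK1 and 0.133 RPKM in HPB-ALL. The line of each library was taken from the labels of its table. The direction of LMO2 went with these names, but its KOPTK1 level was near the 1 RPKM limit, at 0.974 RPKM in the lowest library. The TLX3 levels did not go with the names, so these 2 genes do not settle the line of a library. SHQ1 itself had 45.7, 44.1, 46.4, 41.9, 41.8 and 39.3 RPKM in KOPTK1 libraries 1 to 6 and 70.3, 71.8, 70.9, 47.6, 46.4 and 49.1 RPKM in HPB-ALL libraries 7 to 12. The lowest SHQ1 levels stood in libraries 4, 5 and 6 of KOPTK1 and in libraries 10, 11 and 12 of HPB-ALL. For SHQ1 the highest library was 1.18 times the lowest in KOPTK1 and 1.55 times in HPB-ALL.

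ARMH1 (ENSG00000198520) lies on the plus strand at chr1:44674713-44725591 (GRCh38), with 1818 bases of exon. Its RefSeq promoter window (GRCh38.p14, chr1:44674464-44674763, plus strand, 250 bases before the start and 50 from it on) is shown as the one with the most matches to the motifs searched. Capitals mark matches on either strand. The GC box was searched as GGGCGG, and the box named after its letters as CCAAT. The core read by the Notch factor CSL was searched as TGGGAA, and the half-site of nuclear receptors was searched as AGGTCA.
ARMH1: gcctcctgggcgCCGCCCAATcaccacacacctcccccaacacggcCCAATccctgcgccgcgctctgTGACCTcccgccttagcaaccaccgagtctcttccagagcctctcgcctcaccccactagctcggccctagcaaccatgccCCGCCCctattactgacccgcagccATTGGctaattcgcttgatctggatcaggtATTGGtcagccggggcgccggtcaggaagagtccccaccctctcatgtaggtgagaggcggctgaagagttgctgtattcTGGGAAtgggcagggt
The window held 2 GC boxes, 4 CCAAT matches, 1 TGGGAA and 1 AGGTCA, with the first GC box and the first CCAAT sharing bases. ARMH1 stood at 31.9, 31.2, 34.0, 55.6, 55.9 and 53.3 RPKM in KOPTK1 libraries 1 to 6. In HPB-ALL libraries 7 to 12 it stood at 1.80, 1.97, 1.46, 3.51, 3.31 and 3.37 RPKM. Libraries 4, 5 and 6 were the highest of KOPTK1 and libraries 10, 11 and 12 the highest of HPB-ALL, and the lines did not overlap. The 4 genes were chosen for a rise in both tables. A shared set of highest libraries goes with that choice, so nothing is read from it here or below. The median was 43.7 RPKM in KOPTK1 and 2.64 RPKM in HPB-ALL, a ratio of 16.5 (log2 ratio 4.05). Even the lowest KOPTK1 library was 8.88 times the highest HPB-ALL library. Within a line, the highest library was 1.79 times the lowest in KOPTK1 and 2.40 times in HPB-ALL. The HPB-ALL values rest on 114 to 258 estimated counts per library, so counting error alone is larger there.

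PLIN2 (ENSG00000147872) lies on the minus strand at chr9:19115770-19127576, with 2302 bases of exon. Its promoter window (chr9:19127443-19127742, minus strand) is shown as the most GC-rich of the 3 printed, at 76.7% GC, above 93.1% of all RefSeq promoters of that length. Capitals mark CACGTG (E-box), GC boxes and a TATAAA box.
PLIN2: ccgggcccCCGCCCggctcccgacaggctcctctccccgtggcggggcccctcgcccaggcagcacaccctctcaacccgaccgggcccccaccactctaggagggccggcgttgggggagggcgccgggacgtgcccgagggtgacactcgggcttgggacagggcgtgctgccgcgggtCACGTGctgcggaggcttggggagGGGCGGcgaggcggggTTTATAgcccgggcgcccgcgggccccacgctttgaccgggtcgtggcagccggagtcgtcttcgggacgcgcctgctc
The E-box began 69 bases and the TATAAA match 29 bases before the start, and the GC boxes began 242 and 45 bases before it. PLIN2 levels were 17.6, 17.7, 18.5, 31.6, 30.7 and 30.6 RPKM in KOPTK1 libraries 1 to 6. In HPB-ALL libraries 7 to 12 the levels were 1.26, 1.13, 1.04, 1.98, 1.56 and 2.25 RPKM. Libraries 4, 5 and 6 and libraries 10, 11 and 12 were the highest of their lines, as for ARMH1, again with no overlap between lines. The medians of 24.5 RPKM in KOPTK1 and 1.41 RPKM in HPB-ALL gave the highest ratio of the 4 genes, 17.4 (log2 ratio 4.12). The ratio of the lowest KOPTK1 library to the highest HPB-ALL library was 7.79. The HPB-ALL levels of PLIN2 were the least precise of the set, with 103 to 218.5 estimated counts per library. The 95% exact Poisson interval, which covers counting error only, was 1.04 to 1.5 RPKM in library 7 and 1.32 to 1.83 RPKM in library 11, so the intervals of these libraries overlapped.

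CFTR (ENSG00000001626) lies on the plus strand at chr7:117479963-117668665, with 6132 bases of exon. Its promoter window (chr7:117479775-117480074, plus strand) is shown as the one with the fewest matches, with capitals for CCAAT and AGGTCA.
CFTR: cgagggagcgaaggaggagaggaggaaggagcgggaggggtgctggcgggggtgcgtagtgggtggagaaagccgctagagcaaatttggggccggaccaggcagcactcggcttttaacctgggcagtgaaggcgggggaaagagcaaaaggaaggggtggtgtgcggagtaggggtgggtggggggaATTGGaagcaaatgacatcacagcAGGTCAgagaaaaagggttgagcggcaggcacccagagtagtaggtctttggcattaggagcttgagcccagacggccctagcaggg
CFTR stood at 32.5, 32.2, 34.2, 54.2, 57.0 and 55.7 RPKM in KOPTK1 libraries 1 to 6. In HPB-ALL libraries 7 to 12 the level was 2.36, 2.36, 2.21, 3.59, 3.65 and 3.65 RPKM. Libraries 4, 5 and 6 and libraries 10, 11 and 12 were the highest of their lines, which goes with the choice for a rise. The medians of 44.2 RPKM in KOPTK1 and 2.97 RPKM in HPB-ALL gave a ratio of 14.9 (log2 ratio 3.89), and the lowest KOPTK1 library was 8.82 times the highest HPB-ALL library. A channel gene of epithelia thus stood at 32.2 RPKM or more in every KOPTK1 library, in libraries whose 8 epithelial markers summed to 2.62 RPKM at most. CFTR showed the smallest spread in HPB-ALL, with the highest library 1.66 times the lowest.

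ZNF704 (ENSG00000164684) lies on the minus strand at chr8:80628451-80874781, with 14386 bases of exon, the longest of the set. Its levels were 9.99, 10.2, 10.3, 17.3, 17.5 and 16.9 RPKM in KOPTK1 libraries 1 to 6. In HPB-ALL libraries 7 to 12 they were 0.987, 0.883, 0.999, 1.48, 1.43 and 1.65 RPKM. ZNF704 had the lowest level of the 4 genes in every library of both lines, and its lines did not overlap. Medians of 13.6 RPKM in KOPTK1 and 1.21 RPKM in HPB-ALL gave a ratio of 11.2 (log2 ratio 3.49), the smallest of the set. The long exons gave 4972 to 6509 estimated counts in KOPTK1 and 535 to 1000 in HPB-ALL. Leaving out 1 library moved this ratio between 8.50 and 13.9, the lower value arising without library 4, 5 or 6, because the median falls in the gap between the libraries near 10 RPKM and the others.

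Of the 24138 genes that reached a median of 1 RPKM in either line, 410 (1.7%) were over 10 times higher in KOPTK1 and 15 were over 10 times higher in HPB-ALL. The 4 genes are among the 410 by the way they were chosen, and nothing is read from that count. By ratio they ranked 234 (PLIN2), 242 (ARMH1), 267 (CFTR) and 326 (ZNF704) of the 24078 genes for which a ratio could be formed. All 4 passed the level filter in both lines. Every KOPTK1 library was above every HPB-ALL library for all 4 genes, as for 5532 (22.9%) of the genes tested, and this too follows from how they were chosen. Among protein-coding genes with a KOPTK1 median of at least 10 RPKM, LSP1 (8.25) and CDKN1A (8.59) stood just outside the 10-fold limit and STAT5A (10.4) and ZNF66 (11) just inside it. In such bulk samples, fewer cells expressing a gene and less RNA per cell cannot be told apart, and line and table cannot be told apart either. Whether a library also held RNA of the other line was not tested, so the levels given are those of libraries.

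**Figure D1:**
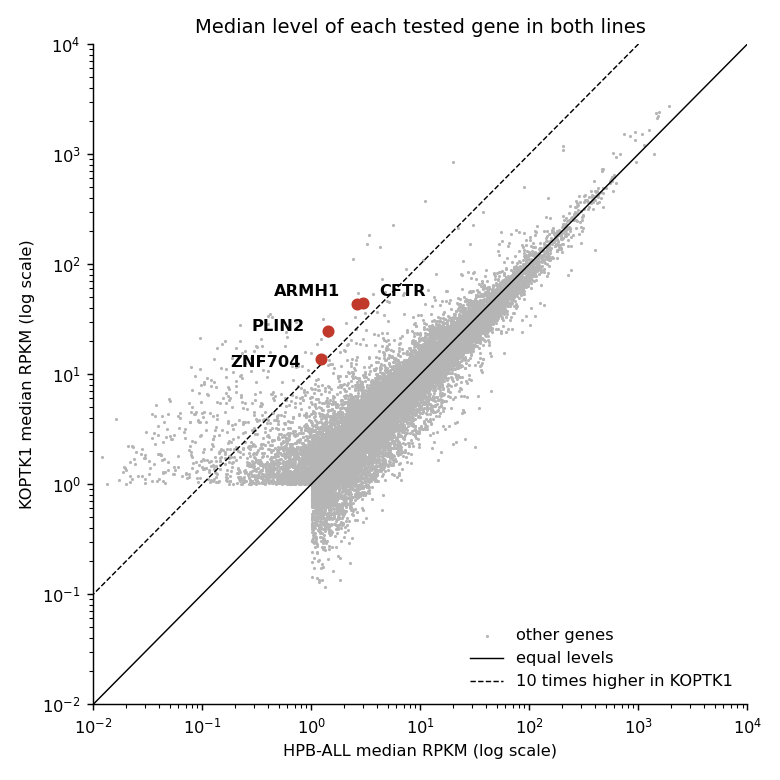
Median level of each tested gene in HPB-ALL (x axis) and KOPTK1 (y axis), both in RPKM on log scales, for genes above 0 in both lines, with the 4 genes in red. They lie above the dashed line of a 10-fold higher level in KOPTK1, at ratios of 11.2 to 17.4.

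Per length, the order of levels was CFTR, ARMH1, PLIN2 and ZNF704 in both lines by median. CFTR and ARMH1 were close neighbours, with CFTR higher in 5 of 6 KOPTK1 libraries and 6 of 6 HPB-ALL libraries and with overlapping ranges in both lines. ARMH1 was above PLIN2 and PLIN2 above ZNF704 in 6 of 6 libraries of each line. The ranges of PLIN2 and ZNF704 did not overlap in KOPTK1 but did in HPB-ALL. In HPB-ALL only CFTR and ZNF704 had ranges that did not overlap.

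The genes kept nearly fixed proportions to each other within KOPTK1. They were chosen for a rise in both tables, which goes with such proportions, so nothing is read from them. The level of ARMH1 over that of CFTR was 0.957 to 1.03 in KOPTK1 (median 0.982) and 0.663 to 0.979 in HPB-ALL (median 0.871). PLIN2 over CFTR was 0.539 to 0.583 (median 0.545) and 0.426 to 0.617 (median 0.507). ZNF704 over CFTR was 0.302 to 0.318 (median 0.307) in KOPTK1 and 0.374 to 0.453 (median 0.415) in HPB-ALL, so for this pair the ranges of the lines did not overlap.

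The highest library was over 1.5 times the lowest in both lines for all 4 genes, as for 3883 of 21342 genes tested (18.2%). The genes were chosen for a rise in both tables, which goes with such a spread, so nothing is read from this count. Within KOPTK1, but not throughout HPB-ALL, other values moved with these levels across libraries. In KOPTK1, libraries 4, 5 and 6 also had the lowest totals (25.9, 25.9 and 22.9 M against 33.9 to 36.1 M) and the highest share of mitochondrial genes (2.25% to 2.37% against 1.74% to 1.91%). In HPB-ALL, library 12 (42.1 M, 1.36%) had a higher total and a lower mitochondrial share than library 7 (41.5 M, 1.42%). The part of the totals and of the mitochondrial share in the levels was not tested. Before division by the total, the estimated counts of CFTR were 6929, 6702.5, 7562, 8625, 9047 and 7815 in KOPTK1 libraries 1 to 6, and those of ARMH1 were 2019, 1924, 2233, 2623, 2630 and 2218. Libraries 4, 5 and 6 were thus the highest for CFTR before scaling as well, and likewise for PLIN2 and ZNF704, but for ARMH1 library 6 was below library 3.

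The summed level of other genes high in KOPTK1 was set beside these levels. With the 4 genes left out, 20 protein-coding genes were over 10 times higher in KOPTK1 at a median of at least 10 RPKM. Their summed level was 426, 410, 430, 677, 684 and 669 RPKM in KOPTK1 libraries 1 to 6. It was 27.5, 28.3, 28.4, 42.1, 42.0 and 41.3 RPKM in HPB-ALL libraries 7 to 12. In both lines the libraries highest for the sum were those highest for ARMH1, PLIN2, ZNF704 and CFTR. All these genes were chosen by their values in these same libraries, so nothing is read from this match. Adding the genes of other biotypes, 77 in all, gave 58.7 to 193 RPKM in HPB-ALL and 2740 to 4655 RPKM in KOPTK1.

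As a share of the 20-gene sum, CFTR was 7.63% to 8.34% in KOPTK1 and 7.77% to 8.85% in HPB-ALL. ARMH1 was 7.49% to 8.21% in KOPTK1 and 5.15% to 8.35% in HPB-ALL. PLIN2 was 4.12% to 4.67% and 3.68% to 5.46%. The ranges of the lines overlapped for these 3 genes. ZNF704 was 2.34% to 2.56% in KOPTK1 and 3.12% to 4.0% in HPB-ALL, with no overlap. The genes of the sum, like CFTR, ARMH1, PLIN2 and ZNF704, were chosen for a high KOPTK1 over HPB-ALL ratio. Similar shares in the lines go with that choice, so nothing is read from an overlap or its lack. The HPB-ALL median was 5.73% of the KOPTK1 median for PLIN2, 6.05% for ARMH1, 6.73% for CFTR and 8.91% for ZNF704.

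**Figure D2:**
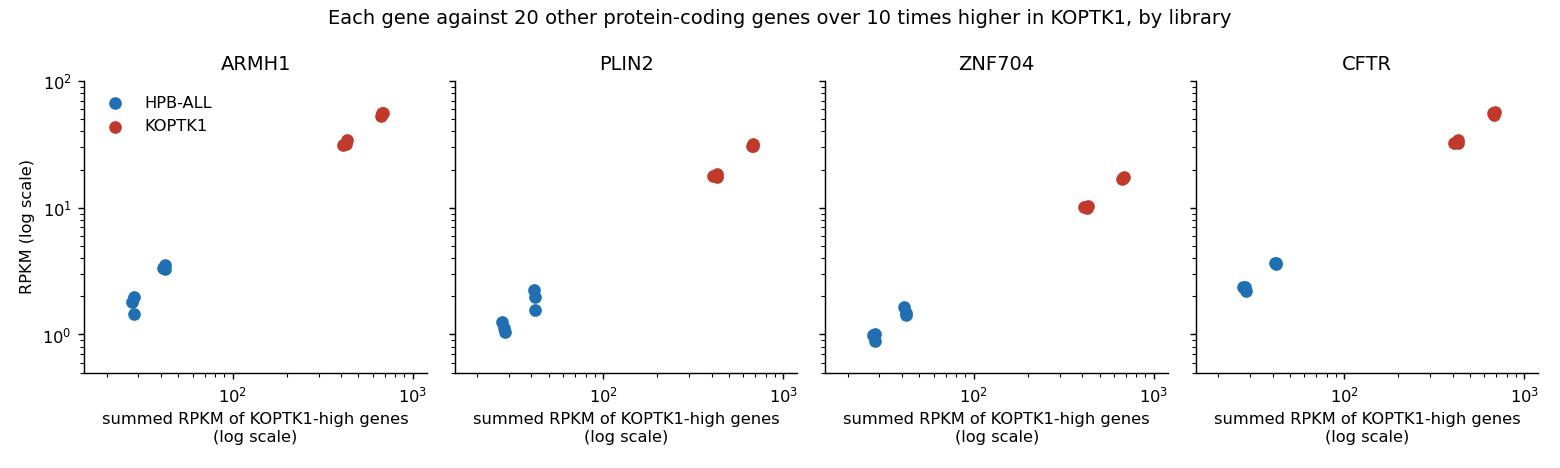
Level of each of the 4 genes (RPKM, log scale) against the summed RPKM (log scale) of 20 other protein-coding genes over 10 times higher in KOPTK1, with 1 point per library. Within each line the libraries with the higher sums (41.3 to 42.1 RPKM in HPB-ALL, 669 to 684 RPKM in KOPTK1) had the higher levels of all 4 genes. The genes were chosen by their values in these libraries, so nothing is read from this match.

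Of the 20 genes, 18 had a highest KOPTK1 library over 1.5 times the lowest (median 1.81, range 1.39 to 2.24), the span in which ARMH1 (1.79), PLIN2 (1.80), ZNF704 (1.75) and CFTR (1.77) lay. In HPB-ALL the 20 genes were less uniform, since 2 of them were not above 0 in every library. Of the other 18, 15 had a highest library over 1.5 times the lowest (median 2.53, range 1.12 to 266). The share over all genes is given here only for both lines at once (18.2%), so nothing is read from these counts. The place of the 4 genes in the span goes with their choice for a rise. In the other direction, 1 gene and 0 protein-coding genes were over 10 times higher in HPB-ALL at a median of at least 10 RPKM. A looser limit of 2 times, set after the data were seen, gave 124 protein-coding genes. They summed to 1610, 1589, 1598, 625, 613 and 608 RPKM in KOPTK1 libraries 1 to 6. The KOPTK1 libraries highest for the 4 genes were the lowest for this sum. The genes of this sum were chosen for low values in these same KOPTK1 libraries, so nothing is read from the opposition. In HPB-ALL libraries 7 to 12 the sum was 2819, 2806, 2808, 2748, 2749 and 2684 RPKM. The part of these gene sets in the levels of ARMH1, PLIN2, ZNF704 and CFTR was not tested.

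Likeness of pattern was taken as the mean of the Pearson correlations within each table over its 6 libraries, as a description. Libraries of a table share their line, and in KOPTK1, but not throughout HPB-ALL, the levels of the 4 genes moved with the totals. The 4 genes were chosen for a rise in both tables, so a high likeness between them follows from the choice. Between the 4 genes it was highest for ARMH1 and CFTR (0.99) and lowest for ARMH1 and ZNF704 (0.951). Of 21341 other genes, a likeness over 0.9 was found for 241 (1.13%) with ARMH1, 264 (1.24%) with PLIN2, 319 (1.49%) with ZNF704 and 276 (1.29%) with CFTR. Most like ARMH1 were the long non-coding RNA LINC02295 (0.996), the T-cell receptor gamma constant gene TRGC1 (0.996) and CFTR. Most like CFTR were the T-cell receptor segments TRBV20-1 (0.994) and TRGJP2 (0.993), and LINC02295 (0.993). These transcripts were also higher in KOPTK1, with KOPTK1 over HPB-ALL ratios of 33.8 (LINC02295), 16.6 (TRGC1), 42.5 (TRBV20-1) and 46.4 (TRGJP2). In HPB-ALL the median was 4.25 RPKM for LINC02295 and 1.13 RPKM for TRGC1, but TRBV20-1 stood at 19.95 RPKM there. Most like PLIN2 were TP53INP1 (0.986), EXPH5 (0.985) and ZNF780B (0.984), and these differed less between the lines, with ratios of 4.10, 2.44 and 1.69. TP53INP1 is a known p53 target. Most like ZNF704 were LRRC37A4P (0.995), CASC15 (0.994) and the growth factor gene MDK (0.991), with ratios of 2.25, 2.41 and 8.02.

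The protein-coding neighbours that reached 1 RPKM in either line had KOPTK1 over HPB-ALL ratios of 0.687 to 2.22. Beside ARMH1, TMEM53, which starts 0.157 kb away on the other strand, had medians of 5.33 RPKM in KOPTK1 and 5.05 RPKM in HPB-ALL (ratio 1.06), and RNF220 a ratio of 1.10. The ARMH1 promoter window thus reaches into TMEM53. KIF2C, a mitotic kinesin gene on the other side of ARMH1, had a ratio of 0.80. Around PLIN2 the ratios were 0.856 (RRAGA), 1.03 (HAUS6), 1.41 (DENND4C) and 1.02 (RPS6). Around ZNF704 they were 0.687 (TPD52), 1.53 (ZBTB10), 2.22 (PAG1) and 1.18 (FABP5). PAG1, a transmembrane adaptor of T-cell signalling, was thus the neighbour with the highest ratio at 7.83 RPKM in HPB-ALL and 17.4 RPKM in KOPTK1. CFTR stood among genes near 0, since the 2 nearest genes on one side, WNT2 and ASZ1, and the nearest on the other, CTTNBP2, all had medians below 1 RPKM in both lines. The gene after CTTNBP2, LSM8 at 515 kb, had a ratio of 1.34.

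Annotated genes inside the spans of the 4 genes had reads too. ENSG00000083622, on the opposite strand to CFTR, had medians of 20.8 RPKM in KOPTK1 and 1.23 RPKM in HPB-ALL, while CFTR-AS1 had 0.596 and 0 RPKM. The strand setting of the counting is not given in the sources used here, so without strand the reads of CFTR and of its antisense genes cannot be told apart where exons overlap. HMGB1P41, a pseudogene within ZNF704 on the same strand, had 8.82 RPKM in KOPTK1 and 0.672 RPKM in HPB-ALL. RNU5F-1, a small nuclear RNA gene opposite ARMH1, had 19.1 and 10.9 RPKM, and no annotated gene overlapped PLIN2.

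The genes related to the 4 in function are given by the same ratio, on which the 4 were chosen, so that the 4 lie over 10 in each list by choice. Across all genes tested the median KOPTK1 over HPB-ALL ratio was 1.01, and 0.954 across protein-coding genes. Every KOPTK1 library was above every HPB-ALL library for 5532 and below for 5504 of the 24138 genes. Among the 12100 protein-coding genes tested, the numbers were 3159 above and 4180 below. The counts of each list are to be read beside the protein-coding numbers. Of 30 lipid droplet proteins and lipases, 21 reached 1 RPKM, with a median ratio of 1.02, and PLIN2 was the only one over 10 times higher in KOPTK1. Every KOPTK1 library was above every HPB-ALL library for 5 of the 21, PLIN2 included, and below for 6. Behind PLIN2 came SOAT2, a cholesterol esterification enzyme (2.12), and LIPE, hormone-sensitive lipase (1.63), while BSCL2, the droplet assembly protein seipin, was at 0.554 and CIDEB at 0.778. The perilipin PLIN3, the family member found in most cells, had 19.8 RPKM in KOPTK1 and 14.7 RPKM in HPB-ALL.

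Of 20 PPAR receptors and target genes, 15 reached 1 RPKM, with a median ratio of 0.981, and the KOPTK1 libraries were all above the HPB-ALL libraries for 5 and all below for 4. PPARG, the receptor of fat cell differentiation, had medians of 1.47 RPKM in KOPTK1 and 0.127 RPKM in HPB-ALL, a ratio of 11.6 and the only one of the list over 10. The other receptors, PPARA and PPARD, stood at 3.23 and 5.30 RPKM in KOPTK1 and at 3.76 and 5.29 RPKM in HPB-ALL. ANGPTL4, a secreted inhibitor of lipoprotein lipase, had a ratio of 1.97, and the lowest ratios were those of ACADVL (0.587), an enzyme of fatty acid oxidation, and VLDLR (0.646).

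Of 22 CFTR-related channels and partners, 13 reached 1 RPKM, with a median ratio of 0.994 and CFTR as the only one over 10, and the KOPTK1 libraries were all above for 5 and all below for 3. PRKACB, a catalytic subunit of the kinase that opens the channel, had the next highest ratio (1.54), and NHERF2, a scaffold protein, the lowest (0.456), followed by CLCN2, another chloride channel (0.771). Of 11 other members of the ABCC family, to which CFTR belongs, 4 reached 1 RPKM, at ratios of 0.791 (ABCC1), 0.758 (ABCC4), 1.12 (ABCC5) and 0.979 (ABCC10). The relatives of ZNF704 were higher in every KOPTK1 library, at ratios of 1.73 (ZNF395) and 1.26 (SLC2A4RG). ARMH3 had 13.3 RPKM in KOPTK1 and 12.3 RPKM in HPB-ALL, and ARMH2 and ARMH4 stayed under 1 RPKM in both lines.

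The promoter windows of ARMH1, PLIN2 and CFTR, printed above, had none of the 8 motifs searched in common. The RefSeq start of these genes lay 1, 84 and 62 bases from the start in the tables. CCAAT was in those of ARMH1 and CFTR, as in 34.6% of all 35116 RefSeq promoters, and AGGTCA was in the same pair, as in 13.8%. GGGCGG was in those of ARMH1 and PLIN2, as in 45.0%. The E-box CACGTG (7.26% of promoters) and TATAAA (11.5%) were matched in PLIN2 alone, and TGGGAA (24.0%) in ARMH1 alone. Neither TGACGTCA, the cAMP response element (1.85%), nor DR1, the repeat of AGGTCA with a spacer of 1 base that PPAR receptors read (0.0228%), was matched in any of these windows. GC content was 62.7% for ARMH1, 76.7% for PLIN2 and 60.7% for CFTR, against a median of 58.7%, with 17, 36 and 12 CpG dinucleotides. A match is a description of the letters in the window and no sign of binding.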

How the data were processed

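The authors' 2 tables, 1 per cell line, hold estimated counts per gene for 6 libraries each, as deposited, with gene coordinates and exon lengths. Fractions occur (3 of 48 values of the 4 genes were not whole). The submitters' processing notes list Trimmomatic 0.36, STAR 2.5.4b, Picard 2.18.7, featureCounts 1.6.2, edgeR 3.22.3 and the build hg38. The coordinates were checked against RefSeq GRCh38, where 99.96% of 19011 protein-coding genes overlapped their position. The tables' logCPM column and their columns of the authors' own comparison (log fold change, F, p-value, FDR) were not used, and 0 other columns were left unmapped.

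Levels were computed as RPKM (count per kilobase of exon and per M counts in the library) in Python 3.11.15 with pandas 2.3.3, numpy 2.4.6 and scipy 1.17.1. Genes with a median of at least 1 RPKM in either line were compared by the ratio of medians, and a pseudocount of 0.1 RPKM was added only for correlations. Symbols were found for 95.8% of identifiers. The column headings name no shRNA group, so the intended shSHQ1 against shGFP fit was not made and no test was run. The separate cultures behind the libraries are not described in the sources used here. The 4 genes and all gene lists were chosen with earlier results of these data known. Named genes were the 4 genes, SHQ1, the 2 highest and 2 lowest ratios of a list, the 2 nearest protein-coding genes on each side (1 of these is not reported here), the 3 genes most alike in pattern and the genes nearest the 10-fold limit. PLIN3, PPARA, PPARD, the relatives of ARMH1 and ZNF704 and the overlapping genes were added after their values were seen. The scripts were tested on simulated data. Alternatives were another scaling, mean for median, filters, a pseudocount, Spearman's rho and leaving out each library. No sequence of ZNF704 is reported here.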

Additional observations from a re-analysis of the deposited data

How the results depend on the processing

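The KOPTK1 over HPB-ALL ratio of each gene kept its direction under every alternative run. Leaving out 1 library gave ranges of 12.9 to 22.1 for ARMH1, 13.1 to 21.7 for PLIN2, 8.50 to 13.9 for ZNF704 and 11.5 to 18.7 for CFTR, and 357 to 479 genes over 10 times higher in KOPTK1. That number was 660 of 36416 genes with no filter on low values and 81 of 9284 genes at 10 RPKM or more, against 410, since the filter sets the genes tested. With that higher filter, 2369 genes had every KOPTK1 library above every HPB-ALL library, against 5532. With Spearman's rho, 53, 64, 79 and 56 genes had a likeness over 0.9 to ARMH1, PLIN2, ZNF704 and CFTR. Leaving mitochondrial genes out of the totals, an alternative chosen after seeing the data, gave ratios of 16.7 (ARMH1), 17.6 (PLIN2), 11.3 (ZNF704) and 15 (CFTR). No paired analysis was possible because the column headings carry neither the replicate number nor the shRNA group. For the same reason the shSHQ1 against shGFP fit and its alternatives (replicate block, leaving out a library, other normalization) were not run. Counts of 103 to 258 limit the precision of ARMH1 and PLIN2 in HPB-ALL.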

Other observations

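The summed level of the 77 genes over 10 times higher in KOPTK1 at 10 RPKM or more, without ARMH1, PLIN2, ZNF704 and CFTR, fell into separate clusters of libraries in both lines. In HPB-ALL it was 64.1, 64.0, 58.7, 192, 193 and 180 RPKM in libraries 7 to 12. In KOPTK1 libraries 1 to 6 it was 2740, 2758, 2780, 4652, 4655 and 4639 RPKM. SHQ1 had its lower levels in the libraries with the higher sums, at 41.9, 41.8 and 39.3 RPKM in libraries 4 to 6 and 47.6, 46.4 and 49.1 RPKM in libraries 10 to 12.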
